A study of Mus musculus with 4 samples.

Results

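The distal stretch of mouse chromosome 2 between 152.5 and 167.5 Mb (mm10) was described in 4 lists of open chromatin peaks. Each list came from 1 library of 1 cell line of mouse small cell lung cancer, and the lines were SMC line 1 (SMC#1), SMC line 2 (SMC#2), non-SMC line 1 (Non-SMC#1) and non-SMC line 2 (Non-SMC#2). SMC (SCLC metastasizing cells) were NCAM hi CD44 lo/- cells, sorted by flow cytometry from lung tumors of Rb1L/L/Trp53L/L (RP) mice, and non-SMC were the NCAM lo CD44 hi cells of such tumors. In these mice Cre, carried by adenovirus under the CMV promoter and given into the trachea, deleted both floxed genes, so the deletion was shared by both cell types. The mice were of mixed C57Bl/6, Balb-c and S129 origin, and all 4 lines were cultured and untreated. A cultured line stands for the cells that grew out after the sort, and whether a line is 1 clone, or how many mice gave rise to it, is not given in the sources used here. The members are all peaks whose summit lay in the stretch, 6025 of 489558 on the autosomes, X and Y. They numbered 1249 for SMC#1, 2076 for SMC#2, 1244 for Non-SMC#1 and 1456 for Non-SMC#2. The stretch had been picked for a high background around its peaks in an earlier look at the same values, recovered from columns of these lists, so the background levels and peak densities of the stretch as a whole are a description and were not tested.

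ATAC-seq cuts DNA with a transposase that reaches mainly open chromatin, so reads pile up at promoters and enhancers that are in use and fall more thinly elsewhere. A peak caller sets the pileup at a summit against the reads in the DNA around it, the local background, and reports their ratio as fold enrichment. A site can therefore keep its fold enrichment while both its pileup and its surroundings carry more reads. The stretch is rich in genes. It held the 5′ ends of 252 protein-coding genes in 15 Mb, or 16.8 per Mb, against 8.63 per Mb on the other autosome bases, and its GC content was 46.4% against 41.9% over all autosomes. Among its genes are Bcl2l1, which encodes the survival protein BCL-XL, E2f1, the transcription factor that RB1 restrains, Src, a tyrosine kinase of adhesion signalling, and the Bpif and Wfdc clusters of secreted airway and epithelial proteins.

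The sequences around 10 summits are shown as examples of the sites in the blocks and of the regions open in 1 cell type. Each is the 101 bases of the plus strand of mm10 centred on a summit, read from the reference assembly, with the annotation given at the summit. Capitals mark a match to one of 7 motifs, which were AP-1 (TGACTCA or TGAGTCA), TEAD (GGAATG), RUNX (TGTGGT or TGCGGT), SOX (ACAATG or ACAAAG), an E-box (CAGCTG), NFI and CTCF, on either strand. The AP-1 pair and the E-box read the same on both strands, and no letter pattern here contains another. Summits with an annotated exon in these bases were passed over. The first 4 have the highest remaining fold enrichment of SMC#1 within 4 of the blocks of raised background described below. The site in an intron of Bcl2l1, close to its 5′ end, (chr2:152831393-152831493) and the site between genes upstream of Gdap1l1 (chr2:163434100-163434200) held none of the motifs. The site upstream of E2f1 (chr2:154577463-154577563) and the site in an intron of Prex1 (chr2:166650599-166650699) held SOX matches.
Bcl2l1 intron: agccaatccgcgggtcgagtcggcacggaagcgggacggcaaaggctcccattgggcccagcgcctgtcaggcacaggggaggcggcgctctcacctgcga
E2f1 upstream: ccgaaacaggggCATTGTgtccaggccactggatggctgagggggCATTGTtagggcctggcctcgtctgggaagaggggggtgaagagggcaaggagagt
Gdap1l1 upstream: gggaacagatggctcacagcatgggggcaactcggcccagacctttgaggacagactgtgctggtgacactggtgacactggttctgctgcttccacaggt
Prex1 intron: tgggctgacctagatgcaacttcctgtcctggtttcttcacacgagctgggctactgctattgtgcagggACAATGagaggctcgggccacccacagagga

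The next 3 are the regions of the stretch open in each SMC line but in no non-SMC line (SMC-only) that ranked highest by the mean percentile of fold enrichment. They lie in an intron of Top1 (chr2:160718977-160719077), in an intron of Ptprt (chr2:161865009-161865109) and between genes upstream of Cbfa2t2 (chr2:154428049-154428149). They held a SOX match, no match and an E-box.
Top1 intron: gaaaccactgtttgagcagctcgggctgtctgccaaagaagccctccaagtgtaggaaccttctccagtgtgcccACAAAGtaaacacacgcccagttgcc
Ptprt intron: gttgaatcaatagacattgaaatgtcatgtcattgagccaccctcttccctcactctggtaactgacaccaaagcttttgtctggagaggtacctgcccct
Cbfa2t2 upstream: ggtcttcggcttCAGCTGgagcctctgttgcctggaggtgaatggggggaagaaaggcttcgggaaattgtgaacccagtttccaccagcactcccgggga

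The last 3 are the highest ranked non-SMC-only regions, open in each non-SMC line but in no SMC line. They lie between genes, nearest to but far from Gm826 (chr2:160075840-160075940), upstream of H13 (chr2:152654565-152654665) and in an intron of Cbfa2t2 (chr2:154463910-154464010). Both of the sites between genes held a TEAD match, and the site in Cbfa2t2 held a RUNX match and, a few bases on, an AP-1 match.
Gm826 distal: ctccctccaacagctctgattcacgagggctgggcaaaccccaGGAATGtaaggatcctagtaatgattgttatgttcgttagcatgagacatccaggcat
H13 upstream: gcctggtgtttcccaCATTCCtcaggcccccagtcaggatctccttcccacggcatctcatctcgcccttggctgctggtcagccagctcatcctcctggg
Cbfa2t2 intron: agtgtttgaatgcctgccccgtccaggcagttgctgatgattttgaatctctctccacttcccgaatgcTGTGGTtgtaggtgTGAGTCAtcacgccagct

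Each library stood alone for its line, and the lists held between 91057 and 153954 peaks. Pileup and local background were recovered from the deposited fold enrichment and p-value of each peak. The background ratio used below is the local background of a peak divided by the lowest background of its list, so a ratio of 1 is the floor that the caller applied genome-wide. Background values in each list were whole multiples of 1 step, and the floor was 90.9 steps in SMC#1, 281 in SMC#2, 235 in Non-SMC#1 and 111 in Non-SMC#2. Taking a step as 1 counted read end, a ratio near 1 carried a counting error of 10.5% in SMC#1, 5.96% in SMC#2, 6.52% in Non-SMC#1 and 9.47% in Non-SMC#2. With 2 lines of each type the smallest two-sided exact permutation p is 0.333, so the cell types were compared without a test, and pair 1 and pair 2 mean the lines that carry the same number in the labels.

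The stretch was denser in peaks than the rest of the genome in each list. SMC#1 had 83.3 peaks per Mb in the stretch and 36.1 on the other autosome bases. SMC#2 had 138 and 63.0, Non-SMC#1 had 82.9 and 46.9, and Non-SMC#2 had 97.1 and 52.3. The density was thus 2.31, 2.20, 1.77 and 1.86 times that of the rest, in the same order. The SMC mean was 2.25 ± 0.0760 (SD, n = 2) and the non-SMC mean 1.81 ± 0.0626 (SD, n = 2), with a difference (SMC minus non-SMC) of 0.441 on average, 0.539 in pair 1 and 0.343 in pair 2. This difference exceeded the spread between lines of a type, but when only peaks of -log10 q 5 or more were kept the ratios were 1.41, 1.24, 1.45 and 1.74 and both non-SMC lines stood above both SMC lines. At this cut the order of the types was thus not that of all peaks. SMC#1, with 110 such peaks, lay close to Non-SMC#1, and the gap between them was not tested.

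The median background around the peaks was also higher in the stretch than elsewhere in every list, as the choice of the stretch would favour, but it was not raised along its whole length. The median background ratio was 1.66 in SMC#1, 1.52 in SMC#2, 1.28 in Non-SMC#1 and 1.37 in Non-SMC#2. On the rest of chromosome 2 it was 1.34, 1.09, 1.19 and 1.10, and on the other autosome positions 1.35, 1.09, 1.18 and 1.09. Peaks at the floor, with a ratio no more than 5% above it, were 11.4%, 19.7%, 25.9% and 20.4% of the stretch against 30.4%, 46.2%, 39.3% and 46.4% of the other autosome positions. The SMC mean of the median ratio was 1.59 ± 0.0968 (SD, n = 2) and the non-SMC mean 1.33 ± 0.0664 (SD, n = 2), a difference of 0.267 with 0.382 in pair 1 and 0.151 in pair 2. Relative to the median of the other autosome positions of each list the values were 1.23, 1.402, 1.09 and 1.26, the difference was 0.139, and SMC#1 lay below Non-SMC#2. Without this scaling, the difference was -0.000449 at sites with a peak in all 4 lists and -0.00288 among peaks with no other peak within 10 kb. The medians at such shared sites were 2.21, 2.15, 2.15 and 2.20 in the stretch. On the other autosome positions they were 1.82, 1.64, 2.05 and 1.79. The unscaled difference was 0.333 at -log10 q of 5 or more and 0.236 with both ends shortened by 1 Mb. Outside the blocks of SMC#1 described below it was 0.227. The unscaled difference was thus at or near 0 at shared sites and among lone peaks, but not under these other cuts. The part of peak crowding in it was not tested.

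What set a list apart was the share of peaks far above the floor. In SMC#1, 260 of the 1249 peaks (20.8%) had a background ratio of at least 3, against 4.69% on the other autosome positions. The share was 3.85% in SMC#2, 8.36% in Non-SMC#1 and 7.07% in Non-SMC#2, with 1.77%, 8.28% and 3.97% elsewhere. SMC#1 was above the non-SMC line of the same number by 12.5 percentage points and SMC#2 below its own by 3.22, so the sign of the raw share differed between the pairs. Divided by the share on the other autosome positions of the same list, the values were 4.44, 2.18, 1.0099 and 1.78, and SMC was above non-SMC in both pairs, by 3.43 in pair 1 and by 0.399 in pair 2. The highest ratio was 21.6 in SMC#1, 4.66 in SMC#2, 7.22 in Non-SMC#1 and 8.52 in Non-SMC#2.

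**Figure D1:**
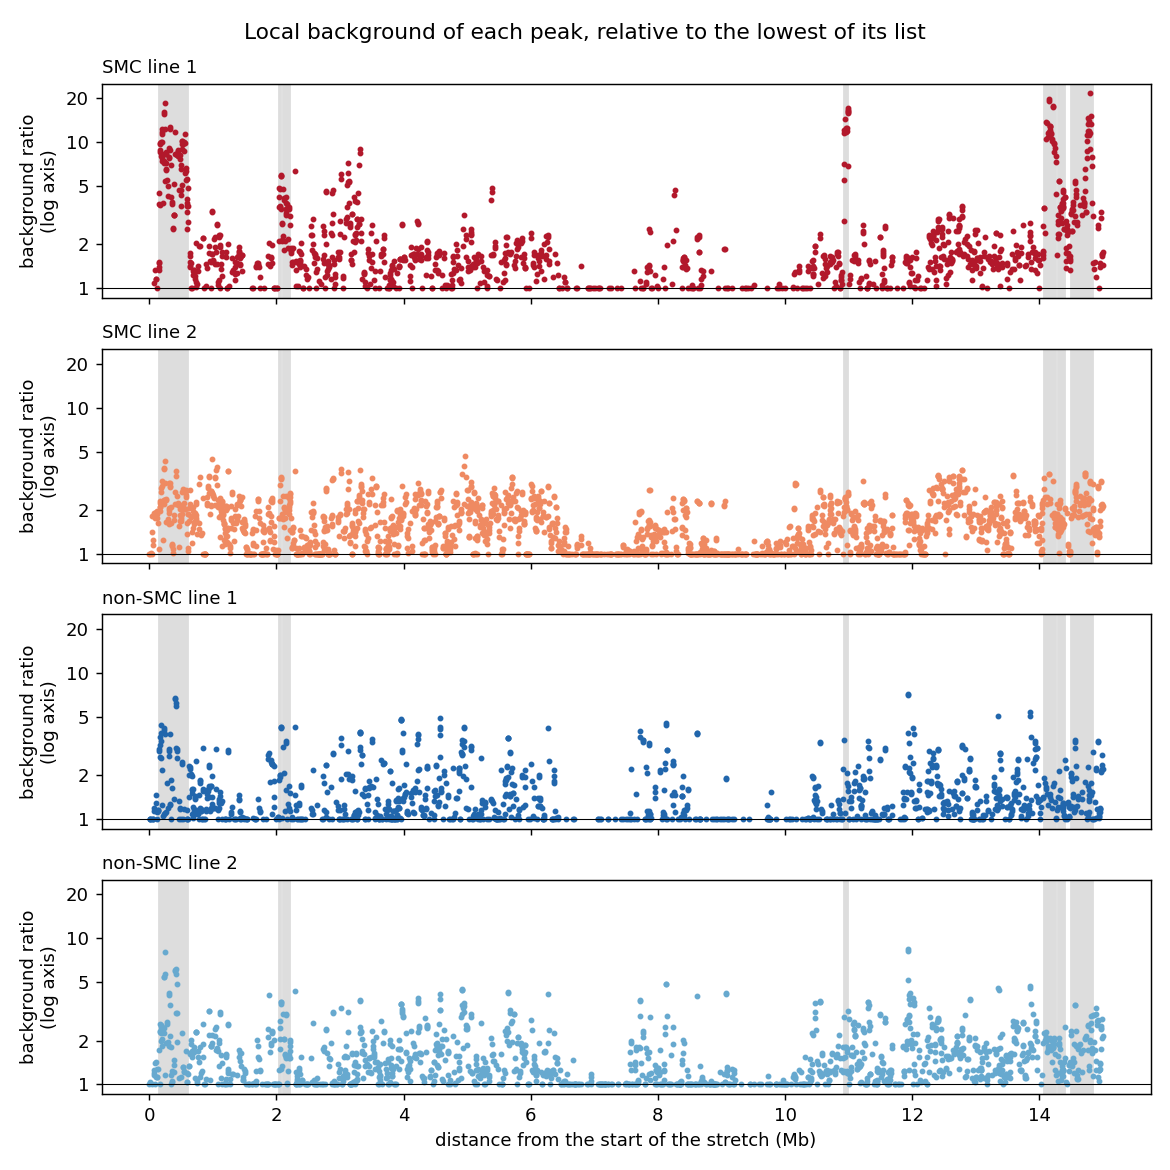
Each dot is a peak of the stretch in 1 of the 4 lists, placed by its distance in Mb from the start of the stretch and by its background ratio on a log axis, with the 7 blocks of SMC#1 in grey. Only SMC#1 has dense groups of dots above 10, up to 21.6, and all 4 lists fall to the floor in the gene-poor middle.

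Along the stretch, SMC#1 stood apart at its ends. In the Mb that starts 9 Mb into the stretch, within the long gene Ptprt, which encodes a receptor phosphatase of neurons, SMC#1 had 18 peaks, SMC#2 had 80, Non-SMC#1 had 23 and Non-SMC#2 had 39. The median ratio there was 1.00 in each list. Peak numbers were highest in the first Mb for Non-SMC#1, with 128, and in the last Mb for SMC#1, with 146. In the first Mb the median ratio was 4.42 in SMC#1 and 1.96, 1.404 and 1.70 in SMC#2, Non-SMC#1 and Non-SMC#2. In the last Mb it was 3.57 in SMC#1 and 1.84, 1.35 and 1.74 in the others. In the other 13 bins SMC#1 lay between 1.00 and 1.76, and SMC#2 between 1.00 and 1.87.

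**Figure D2:**
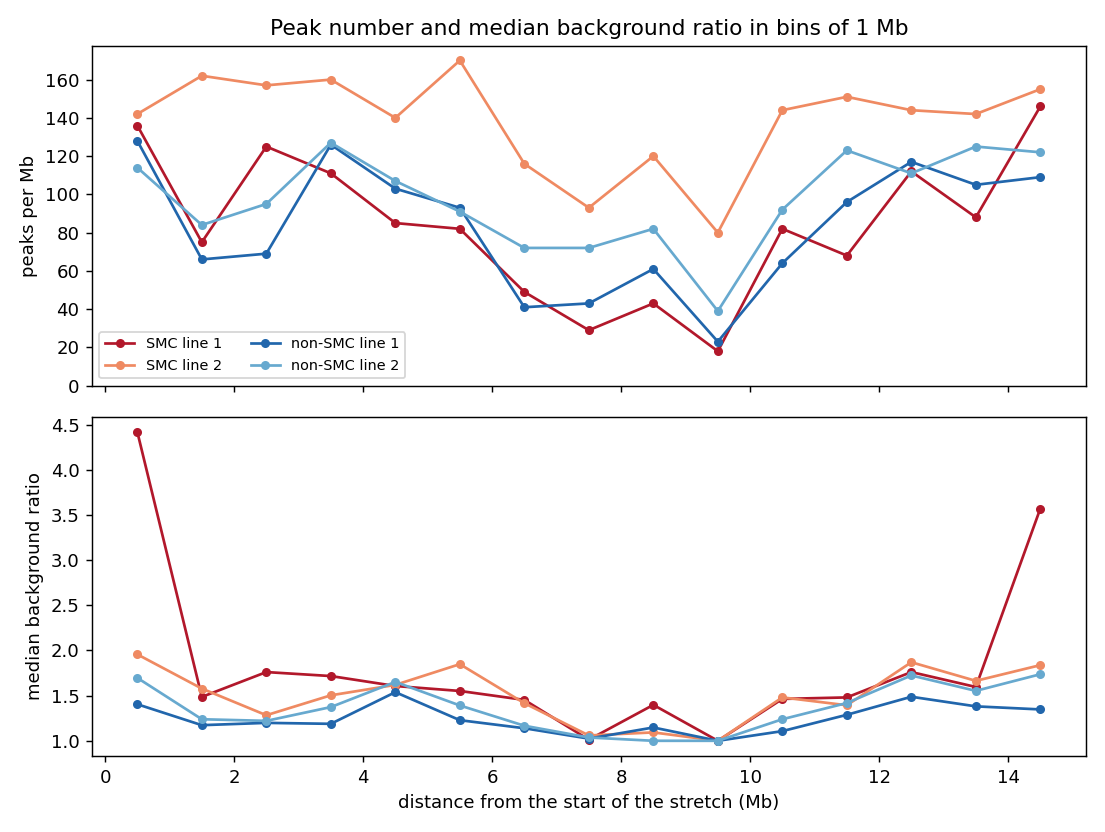
The upper panel gives the number of peaks and the lower panel the median background ratio of each list in 15 bins of 1 Mb, by distance from the start of the stretch. SMC#1 leaves the other lists in the first bin, at 4.42, and the last bin, at 3.57.

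The rise of SMC#1 came as blocks. A block was a run of at least 10 peaks with a ratio of at least 3 and no more than 2 lower peaks in a row between them, a rule written after the values had been seen. SMC#1 had 20 blocks on the autosomes and 7 of them were in the stretch, covering 1328 kb and 233 of its peaks, or 18.7% of them against 1.13% of all its autosome peaks. No block of the other lists was in the stretch, although SMC#2 had 20, Non-SMC#1 had 71 and Non-SMC#2 had 27 elsewhere, with 0.486%, 0.935% and 0.31% of their autosome peaks. This absence held for the rule as written. With a ratio of 2.5 in place of 3 the stretch held 2 blocks of SMC#2, 1 of Non-SMC#1 and 2 of Non-SMC#2, and with at least 5 peaks in place of 10 it held 1, 5 and 3. With up to 5 lower peaks in a row it held 1 block of Non-SMC#1. Since the blocks were chosen on the ratios of SMC#1, its own ratios in them are a description, while the other 3 lists played no part in the choice.

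The first block ran for 456 kb from 152653200 to 153108937 and held the 5′ ends of 14 genes. Its 89 peaks in SMC#1 had a median ratio of 7.67, from 2.53 to 18.6. In the same interval SMC#2 had 74 peaks with a median of 2.08, Non-SMC#1 had 50 with 2.28, and Non-SMC#2 had 57 with 2.05. The edges were short. The ratio was 1.52 at the last peak before the block and 3.77 at its first, 6.999 kb on, and it fell from 4.83 to 1.397 over the 27.7 kb after it. Among the genes are H13, Mcts2, Id1, Cox4i2, Bcl2l1, Tpx2, Mylk2, Foxs1, Dusp15, Ttll9, Pdrg1, Xkr7 and Ccm2l. Id1 is an inhibitor of basic helix-loop-helix factors, Tpx2 builds the mitotic spindle, and H13 encodes a signal peptide peptidase.

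Promoter peaks in this block stood on a high background in SMC#1. At Id1, the strongest promoter peak of SMC#1 had a fold enrichment of 6.62, the 89.96 percentile of its list, and a background ratio of 15.7. The ratio at Id1 was 3.81 in SMC#2, 4.18 in Non-SMC#1 and 5.47 in Non-SMC#2. At Bcl2l1, whose intronic summit is shown above, the fold enrichment was 8.34 in SMC#1, 6.63 in SMC#2, 9.32 in Non-SMC#1 and 6.76 in Non-SMC#2, each read within its own list. The background ratio at that site was 12.3, 2.88, 3.803 and 3.53. At Tpx2 the fold enrichment was 11.8 in SMC#1, at the 99.0 percentile, with ratios of 6.94 in SMC#1, 2.09 in SMC#2, 1.87 in Non-SMC#1 and 1.80 in Non-SMC#2. SMC#1 had the highest ratio at each of these 3 promoters.

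The fourth block had the steepest end of the 7. It ran for 69.3 kb from 163424639 to 163493956 over Oser1, Gdap1l1, Fitm2 and R3hdml, and Fitm2 encodes a lipid droplet protein. Its 16 peaks in SMC#1 had a median ratio of 12.3, from 5.56 to 17.2. The ratio was 17.2 at its last peak and 1.07 at the next one, 11.4 kb on and next to the 5′ end of Hnf4a, a factor of liver and gut epithelium. SMC#2 had 14 peaks in the interval with a median of 2.19, Non-SMC#1 had 4 with 1.66, and Non-SMC#2 had 9 with 1.67. The highest single ratio in these 3 lists was 2.54, below the lowest of SMC#1.

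The remaining blocks flanked E2f1 and the end of the stretch. The second (36.8 kb from 154540739 to 154577513, with Necab3 and E2f1) had a median ratio of 4.50 in SMC#1 and 3.23, 2.00 and 2.71 in SMC#2, Non-SMC#1 and Non-SMC#2. The third (108 kb from 154603763 to 154712225, with Zfp341 and Chmp4b, a membrane scission protein) had medians of 3.49, 2.07, 1.54 and 1.53. The fifth (191 kb from 166575574 to 166766413) lay over Prex1, an exchange factor that activates the GTPase RAC, and its medians were 11.1, 2.20, 1.48 and 1.84. The sixth (113 kb from 166793809 to 166906989, with Arfgef2 and Cse1l, an exporter of importin) had medians of 3.61, 1.62, 1.23 and 1.26. The seventh (354 kb from 166995355 to 167349335) held Stau1, Ddx27, Znfx1, Ptgis and B4galt5 among others, with medians of 4.17, 2.23, 1.44 and 1.75 and single peaks up to 21.6 in SMC#1.

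**Figure D3:**
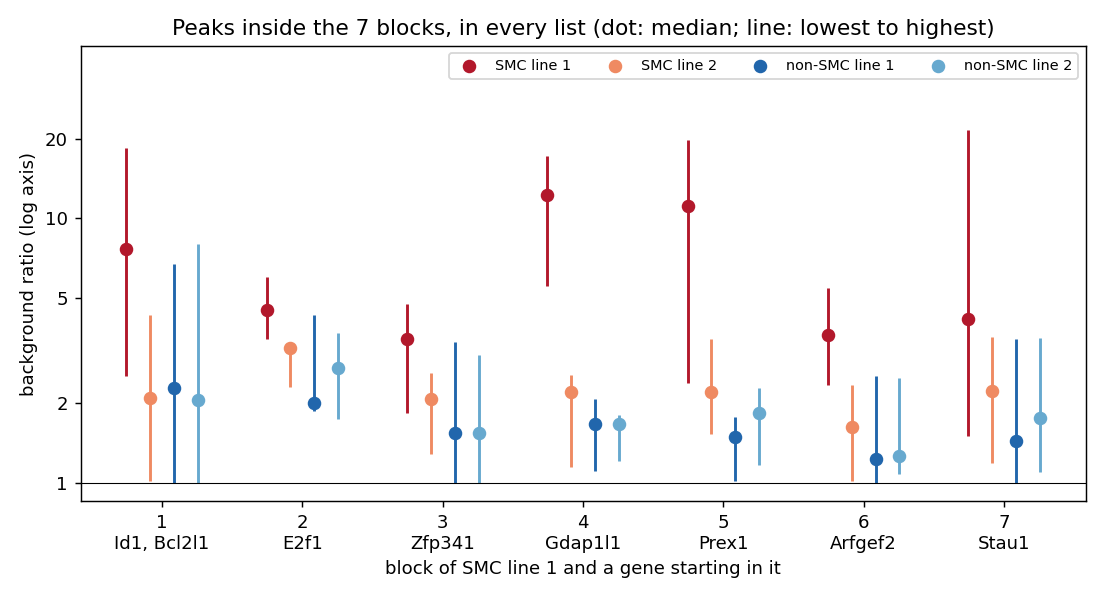
For each of the 7 blocks of SMC#1, named by its number and a gene that starts in it, dots give the median background ratio of the peaks in each list on a log axis and lines run from the lowest to the highest peak. In blocks 4 and 5 the medians of SMC#1 are 12.3 and 11.1 and those of the other lists lie between 1.48 and 2.20.

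Since pileup is close to the product of fold enrichment and background, a high pileup of SMC#1 inside the blocks follows from their choice and is given as a description. In SMC#1 the median fold enrichment was 3.03 inside the blocks and 3.16 in the rest of the stretch, while the median pileup was 24.1 times the floor inside and 8.77 times in the rest. In SMC#2 the pileup was 7.15 times the floor inside and 5.85 in the rest, in Non-SMC#1 it was 7.40 and 6.06, and in Non-SMC#2 it was 9.39 and 7.83. Peaks per 100 kb inside the blocks and in the rest of the stretch were 17.5 and 7.43 in SMC#1. The block rule, a run of peaks of SMC#1, favours this and makes it a description. They were 15.2 and 13.7 in SMC#2, 10.1 and 8.12 in Non-SMC#1 and 12.7 and 9.41 in Non-SMC#2. Of the 222 regions with an SMC#1 peak inside the blocks, 57.2% had no peak in any other list, near the 59.6% in the rest of the stretch and the 52.4% on the other autosome positions.

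Sites shared by all 4 lists gave the ratio at the same positions. The blocks were chosen for high ratios in SMC#1, so its place above the other lists inside them, and its lower place outside, follow largely from that choice and are a description. There were 34 such sites inside the blocks and 130 in the rest of the stretch. Inside, the median ratio was 6.46 in SMC#1, 2.43 in SMC#2, 2.24 in Non-SMC#1 and 2.32 in Non-SMC#2, and SMC#1 was highest at 34 of the 34. In the rest of the stretch the medians were 1.98, 2.08, 2.15 and 2.14, and SMC#1 was highest at 25 of 130. Peaks with no other peak within 10 kb gave the same order inside the blocks, with a median of 6.83 over 8 such peaks in SMC#1, 2.02 over 8 in SMC#2, 1.24 over 24 in Non-SMC#1 and 1.78 over 14 in Non-SMC#2. In SMC#1 the ratio of these lone peaks was 1.08 in the rest of the stretch.

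The comparison was repeated among 100 kb windows with the same number of gene starts, leaving out stretch windows that the blocks touch. Windows with blocks elsewhere on the autosomes were kept. With 3 or more gene starts, SMC#1 had a median ratio of 1.64 over 28 windows of the stretch and 1.67 over the other autosome windows. SMC#2 had 1.69 and 1.41, Non-SMC#1 had 1.26 and 1.52, and Non-SMC#2 had 1.53 and 1.38. With 1 or 2 gene starts the values were 1.56 and 1.43 in SMC#1, 1.496 and 1.10 in SMC#2, 1.32 and 1.25 in Non-SMC#1, and 1.32 and 1.15 in Non-SMC#2. With no gene start they were 1.41 and 1.28 in SMC#1, 1.06 and 1.00 in SMC#2, 1.17 and 1.09 in Non-SMC#1, and 1.16 and 1.02 in Non-SMC#2. SMC#2 thus had the widest gap of the lists in windows with gene starts and the narrowest in windows without. At 3 or more gene starts both SMC#1 and Non-SMC#1 were below windows of like gene number. The left-out windows were chosen on high ratios of SMC#1, so its lower place is a description. With them kept, SMC#1 had 1.69 over 35 windows, above the 1.67, and Non-SMC#1 had 1.30 over 37, still below.

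**Figure D4:**
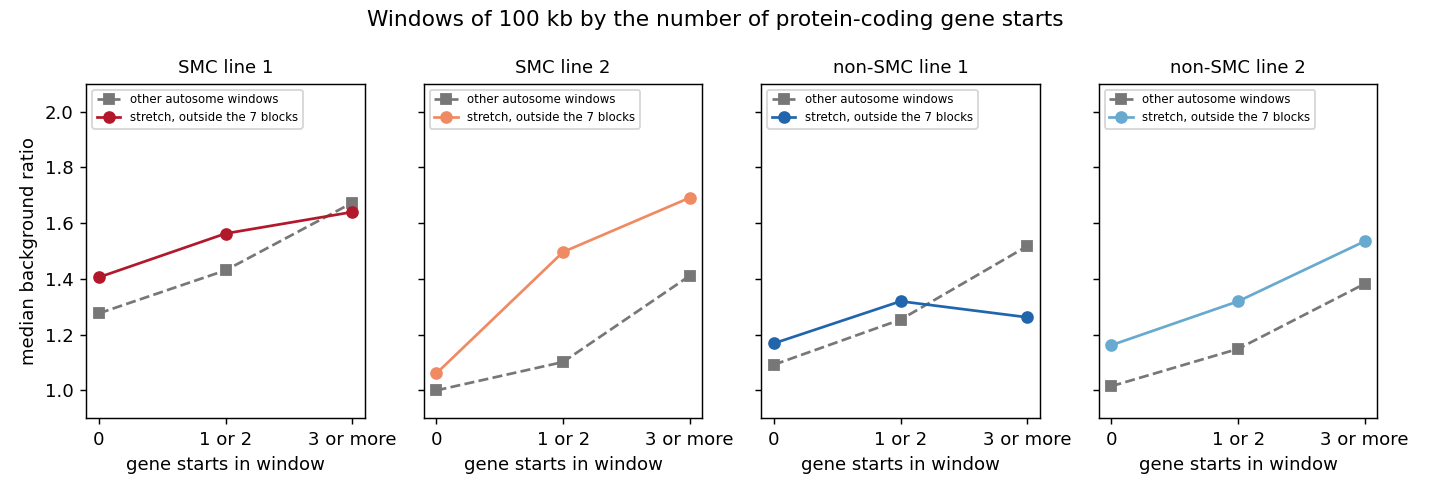
Median background ratio of 100 kb windows with at least 5 peaks, by the number of protein-coding gene starts in the window, for windows of the stretch outside the 7 blocks (solid) and for the other autosome windows (dashed), in each list. The solid line is above the dashed one throughout in SMC#2 and Non-SMC#2, and crosses below it at 3 or more gene starts in SMC#1 (1.64 against 1.67) and Non-SMC#1 (1.26 against 1.52). The dashed line keeps windows with blocks found elsewhere.

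A window of 100 kb was called raised at a median ratio of at least 2 with at least 5 peaks. SMC#1 had 22 raised windows of 111 in the stretch (19.8%) against 11.9% on the autosomes. SMC#2 had 27 of 148 (18.2%) against 4.09%, Non-SMC#1 had 12 of 114 (10.5%) against 11.6%, and Non-SMC#2 had 18 of 132 (13.6%) against 5.84%. Of the 150 windows, 101 were raised in no list and 3 in all 4. The latter lay over H13, Mcts2 and the beta-defensin genes Defb36 and Defb25, over Mylk2, Foxs1, Dusp15 and Ttll9, and over Src. In the Src window the medians were 2.19 in SMC#1, 2.75 in SMC#2, 2.82 in Non-SMC#1 and 3.12 in Non-SMC#2.

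Windows raised in a single list were counted next. SMC#1 alone was raised in 10 windows, against 4.81% of its autosome windows, and the highest were those of Prex1 and Trp53rkb at 7.35, of Bcl2l1 and Tpx2 at 4.68 and of Arfgef2, an exchange factor of vesicle traffic, at 3.60. In the other lists these 3 windows lay between 1.21 and 1.83. The rule required the other lists with enough peaks to lie under 2 there, so their lower values follow from it. Windows of SMC#1 with medians up to 12.2 were not counted, since another list was raised there too. SMC#2 alone was raised in 12 windows, against 1.04%, led by 4930404H24Rik at 2.61, Nol4l at 2.498 and a window with no gene start at 2.46. Non-SMC#1 alone was raised in 3, against 5.76%, and these were a window with no gene start at 3.48, that of Cbfa2t2 at 2.08 and that of Elmo2, Zfp663 and Zfp334 at 2.03. Non-SMC#2 alone was raised in 5, against 1.43%, led by Epb41l1, a membrane skeleton protein of neurons, at 2.90, by Ccn5 and Kcnk15 at 2.45 and by Tgif2, 4930518I15Rik, Rab5if and Sla2 at 2.43. With the threshold set at a median ratio of 3, SMC#1 alone was raised in 14 windows, SMC#2 in 0 and each non-SMC line in 1. The autosome shares at this threshold are not given here.

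Open promoters were common in the stretch. A peak overlapped the 6 kb centred on the 5′ end of the gene at 188 of the 252 genes in SMC#1, 207 in SMC#2, 185 in Non-SMC#1 and 188 in Non-SMC#2. These were 74.6%, 82.1%, 73.4% and 74.6% of the genes of the stretch. Over all protein-coding genes the shares were 62.2%, 69.3%, 64.6% and 64.9%. All 4 lists had a promoter peak at 140 genes (55.6%) against 48.7% of all protein-coding genes, and none had one at 12 (4.76%) against 19.2%. SMC-only promoters numbered 13 (5.16%) against 3.08%, and non-SMC-only promoters 7 (2.78%) against 2.45%. When only peaks of -log10 q 5 or more were kept the order turned, with 2 SMC-only and 22 non-SMC-only promoters. On the other autosome positions, too, this cut kept a smaller share of the peaks of each SMC line than of either non-SMC line. The shares over all protein-coding genes at this cut are not given here, so whether the turn is particular to the stretch was not tested. Of the 34 genes that start inside the blocks, 25 had a promoter peak in all 4 lists and 4 were SMC-only, among them Dusp15, Ccm2l and Chmp4b.

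Among the SMC-only promoters of highest rank were those of Ppp1r16b, Bpifb2, Chmp4b and Dusp15. At Ppp1r16b the fold enrichment was 3.90 in SMC#1 (64.5 percentile of its list) and 3.30 in SMC#2 (61.6 percentile). At Chmp4b it was 4.81 (79.6 percentile) and 2.75 (25.7 percentile). The non-SMC-only promoters of highest rank were those of Sgk2, a kinase related to AKT, Defb36, Src, Gm17416 and Gm15557. At Sgk2 the fold enrichment was 5.89 in Non-SMC#1 (72.8 percentile) and 11.6 in Non-SMC#2 (97.7 percentile). At Src it was 6.13 (74.6 percentile) and 3.10 (49.7 percentile). Over these promoters the percentile ran from 10.8 at Dusp15 in SMC#1 to 97.7 at Sgk2 in Non-SMC#2.

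The 6 lists of genes of the stretch, drawn up from textbook roles, are given by their counts, to be read against the 48.7% of all protein-coding genes and the 55.6% of genes of the stretch with a promoter peak in all 4 lists. Differences between lists were not tested. In the cell cycle and mitosis list 9 of the 9 members that start in the stretch had a promoter peak in all 4 lists. They are E2f1, Rbl1, a relative of Rb1, Mybl2, Tpx2, Ube2c, Fam83d, Mapre1, Top1 and Cse1l, and 3 of them lie in blocks of SMC#1. At Mybl2, a factor of mitotic genes, the fold enrichment was 9.98 in SMC#1, 9.27 in SMC#2, 13.5 in Non-SMC#1 and 9.24 in Non-SMC#2, at the 97.6, 96.7, 96.6 and 94.5 percentiles of their lists. In the survival and signalling list 6 of 8 were open in all 4 lists, among them Bcl2l1, Plcg1, Stk4, Ywhab and Prex1, and the other 2, Src and Sgk2, were non-SMC-only. In the transcription and chromatin list 14 of 18 were open in all 4, among them Id1, Asxl1, Dnmt3b and Chd6, and none was SMC-only or non-SMC-only. Eya2, a transcriptional coactivator, had a promoter peak in SMC#1 alone.

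The remaining lists hold tissue-restricted genes, for which the same 48.7% in all 4 lists, and 3.08% SMC-only, hold over all genes. The list names are loose, and some members, such as Svs2 and Jph2, are known mainly from other tissues. In the neural and synaptic list 4 of 14 had a promoter peak in all 4 lists (among them Epb41l1, Cdh22 and Stau1) and 2 were SMC-only, among them Slc12a5, the neuronal chloride transporter KCC2. At Slc12a5 the fold enrichment was 2.90 in SMC#1 and 2.67 in SMC#2, at the 29.2 and 21.9 percentiles, so these were weak peaks. Ptprt had a promoter peak in SMC#2 and Non-SMC#2, and Jph2 in no list. In the matrix, adhesion and contractile list 2 of 10 were open in all 4, Sdc4, a heparan sulfate proteoglycan, and Matn4, and none was SMC-only or non-SMC-only. Ccn5, a secreted matrix protein, had fold enrichments of 10.1 in Non-SMC#1, 7.96 in Non-SMC#2 and 4.10 in SMC#1, at the 90.3, 91.4 and 67.7 percentiles, and no peak in SMC#2. In the airway secretory list 4 of 21 were open in all 4 (Lbp, Slpi, Wfdc3 and Pltp), Bpifb2 was SMC-only, and 3 (Bpifb6, Bpifb3 and Svs2) had none. Slpi, a protease inhibitor of airway fluid, had fold enrichments of 10.4 in Non-SMC#1 and 9.76 in Non-SMC#2, and 4.74 in SMC#1 and 2.96 in SMC#2, at the 91.1, 95.4, 77.3 and 43.9 percentiles.

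The 4 lists merged into 4518 regions in the stretch where peaks overlapped by at least 1 base. SMC-only regions were 182 of them (4.03%) against 4.35% on the autosomes, non-SMC-only regions 221 (4.89%) against 7.36%, and regions open in all lists 164 (3.63%) against 3.79%. Inside the blocks the shares were 7.27%, 4.04% and 6.87% of 495 regions. With peaks of -log10 q 5 or more alone there were 26 SMC-only and 136 non-SMC-only regions, and the autosome shares at this cut are not given here. Regions found in a single list were the most common class, with 720 in SMC#1 (15.9% against 12.7% on the autosomes) and 1439 in SMC#2 (31.9% against 28.8%). There were 609 in Non-SMC#1 (13.5% against 15.6%) and 820 in Non-SMC#2 (18.1% against 19.7%).

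Motif content was measured within 100 bp of the summit and was not part of the choice of the stretch. Of the 221 non-SMC-only regions, 44.8% (95% Wilson interval 38.4 to 51.4) held an AP-1 motif, the binding sequence of FOS and JUN dimers. The share was 4.95% (2.62 to 9.13) in the 182 SMC-only regions, 7.32% (4.23 to 12.4) in the regions open in all lists and 8.26% over all regions of the stretch. SOX motifs were in 29.7% (23.5 to 36.7) of SMC-only and 23.1% (18.0 to 29.1) of non-SMC-only regions, and the E-box CAGCTG, a sequence bound by neural basic helix-loop-helix factors, in 24.2% (18.5 to 30.9) and 13.6% (9.68 to 18.7). RUNX motifs were in 18.7% (13.7 to 25.0) and 26.7% (21.3 to 32.9), and TEAD motifs in 12.1% (8.12 to 17.6) and 15.8% (11.6 to 21.2). NFI was in 0 regions of either class and CTCF in 1.10% and 2.26%. The intervals cover counting error only. They were apart for AP-1 and overlapped for the other motifs. On all autosomes the AP-1 shares were 46.7% of non-SMC-only and 4.17% of SMC-only regions, inside both intervals, whereas SOX was in 40.4% of SMC-only regions there, above the interval of the stretch.

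**Figure D5:**
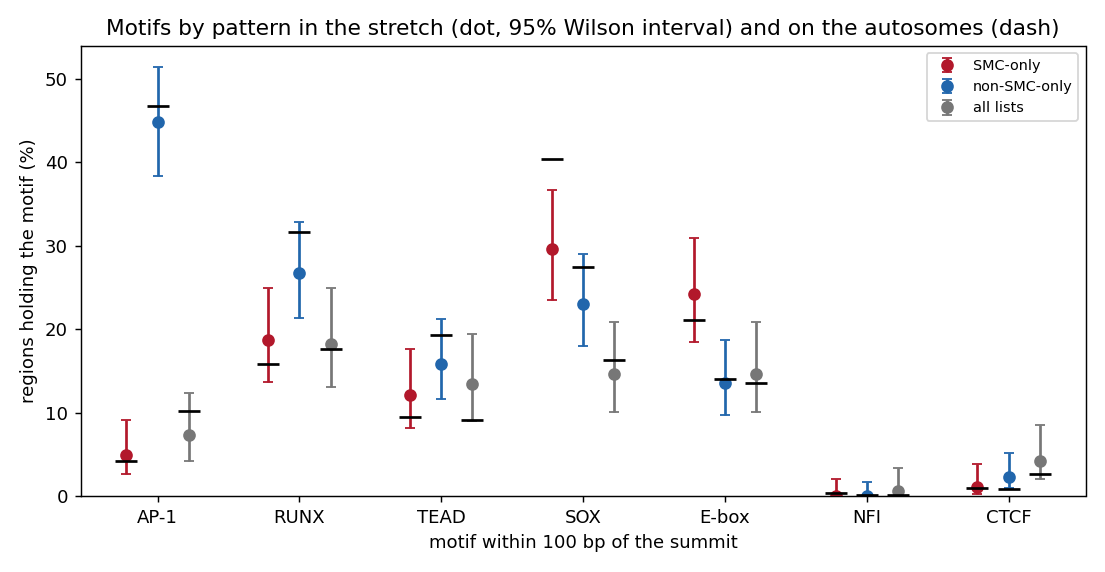
Dots give the percent of SMC-only, non-SMC-only and all-list regions of the stretch that hold each of 7 motifs within 100 bp of the summit, with 95% Wilson intervals, and dashes give the same over the autosomes. The AP-1 share of non-SMC-only regions, 44.8%, stands above the 4.95% of SMC-only regions, and the SOX share of SMC-only regions, 29.7%, lies under its dash at 40.4%.

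Motif shares of the regions with an SMC#1 peak were set side by side inside and outside the blocks of SMC#1. Where such a region also held a peak of another list, the summit used may be that of the other list. AP-1 was in 6.31% of the 222 regions with an SMC#1 peak inside the blocks and 5.13% of the 995 in the rest of the stretch, SOX in 23.9% and 24.1%, RUNX in 19.4% and 20.3%, TEAD in 10.8% and 12.1% and the E-box in 18.9% and 17.3%. The median GC content of the windows was 54.2% and 52.2%. The site upstream of H13 shown above, at the start of the first block, was a non-SMC-only region with fold enrichments of 14.97 in Non-SMC#1 and 11.5 in Non-SMC#2. No peak of either SMC line overlapped it.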

How the data were processed

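ATAC-seq reads of 4 cell lines, 1 library each, had been mapped by the authors to mm10 with Bowtie2 2.3.4, sorted with samtools, cleared of duplicates with sambamba and passed to MACS2 2.1.1 per library, without pooling; the settings of the peak calling are not given in the sources used here. The deposited lists hold, per peak, the fold enrichment (a ratio of summit pileup to local background, 1 added to each), the -log10 p and -log10 q of the summit, and a score that the authors' caller derives from them and that was not used. Read totals were not analysed here.

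Pileup and local background were recovered by solving the fold enrichment and the Poisson p-value together with scipy 1.17.1 and pandas 2.3.3 under Python 3.11.15. On 19760 simulated peaks, 100% were recovered to within 1%, and 3 of 3 planted blocks were found with exact ends. A local background taken over 10 kb, the MACS2 default, was assumed for the counting error, which covers counting only. Windows were 100 kb with at least 5 peaks, promoters 6 kb centred on the 5′ end of 21938 protein-coding genes (GENCODE M21), and promoters were ranked by the percentile of fold enrichment within a list, since raw fold enrichments of different lists are not on 1 scale. Genes were named by 3 rules, namely members of the 6 gene lists, genes in the 3 highest windows raised in a single list, and, for promoters open in 1 cell type only, the 5 of highest mean percentile in each; other genes inside blocks were named after their values were seen, and some items are not reported here. The members, gene lists and thresholds were chosen with earlier results of these data known. Because each group has 2 lines, which the labels do not tie to separate mice, values are given per line and no test was made. The alternatives tried were a -log10 q minimum, equal numbers of top peaks, other window sizes and thresholds, other promoter and overlap rules and each library left out.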

Additional observations from a re-analysis of the deposited data

Results flagged for a closer look

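The share of peaks of the stretch with a background ratio of at least 3 moved in opposite directions in the numbered pairs of lines. SMC#1 exceeded Non-SMC#1 by 12.5 percentage points, whereas SMC#2 differed from Non-SMC#2 by -3.22 percentage points. Relative to the share on the other autosome positions of the same list, the differences were 3.43 and 0.399 and had the same sign, so the opposite directions hold for the raw share alone. With 1 library per line, whether the pairs differ was not tested.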

How the results depend on the processing

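Of the values computed again under the alternatives, 71 stayed close, 79 moved and 2 turned sign. The SMC minus non-SMC difference in the median background ratio turned to -0.00288 over peaks with no neighbour within 10 kb. It turned to -0.000449 at sites open in all 4 lists, an alternative chosen after seeing the data. Relative to the other autosome positions it fell to 0.139. It was 0.333 at -log10 q of 5 or more and 0.236 with both ends shortened by 1 Mb. The cause was not tested. Keeping peaks of -log10 q 5 or more left 110, 199, 390 and 266 peaks in SMC#1, SMC#2, Non-SMC#1 and Non-SMC#2, with density ratios of 1.41, 1.24, 1.45 and 1.74. This cut gave 26 SMC-only, 136 non-SMC-only and 55 all-list regions, and 2, 22 and 53 such promoters with 109 in no list. Non-SMC-only promoters thus rose from the 7 of all peaks, and the cause was not tested. Shares over all protein-coding genes at this cut are not given here, so the rise may not be particular to the stretch. Equal numbers of top peaks gave 1140 peaks in SMC#2 and 959 in Non-SMC#2, with density ratios of 2.04 in SMC#2, 1.66 in Non-SMC#1 and 1.73 in Non-SMC#2. Against the rest of chromosome 2 the ratio was 2.42 in SMC#1 and 1.59 in Non-SMC#2. Windows raised in SMC#1 alone numbered 21 at 50 kb and 5 at 200 kb. Summits up to 200 bp apart gave 108 all-list regions, promoters of 2 kb left 40 genes with no peak, and 3 blocks had at least 20 peaks; blocks of the other lists appeared under looser rules. With each library left out in turn, SMC-only regions ranged from 207 to 1621, non-SMC-only regions from 257 to 1041, SMC-only promoters from 17 to 32, non-SMC-only promoters from 8 to 21, and promoters in no list from 13 to 31; the highest values came without SMC#1, Non-SMC#1, SMC#1, SMC#2 and SMC#2. No paired analysis was possible because no test was made in which a block could enter; differences within the numbered pairs are given as values. The floors were 90.9 to 281 steps. A small difference between single ratios near 1 lay within the counting error, 10.5% in SMC#1 and 9.47% in Non-SMC#2. How small a difference between medians could be told apart was not tested.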
